A study of Homo sapiens with 6 samples.

Results

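Aminoacyl-tRNA synthetases and genes of the amino acid response were examined in 6 single-cell libraries of the human line PC9, which was established from a lung adenocarcinoma and depends on mutant EGFR. The set holds 34 genes, listed by symbol, of 26195 symbols in the deposited tables. It comprises 20 cytoplasmic synthetases and 14 genes of the response. VARS, the valine enzyme, had no row in these tables and was not analysed here, so 33 genes have values.

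Each synthetase joins one amino acid to its tRNA, which supplies the ribosome with its building blocks. When amino acids run short, uncharged tRNA activates the kinase GCN2, encoded by EIF2AK4, which phosphorylates the initiation factor eIF2. General translation then falls while the messenger of ATF4 is translated more. ATF4 is a transcription factor that raises genes for amino acid synthesis, amino acid transport and tRNA charging. Stress of the endoplasmic reticulum reaches the same factor through another eIF2 kinase, so the pathway is also called the integrated stress response.

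Drop-seq isolates each cell in a droplet and counts its messenger RNA molecules by unique molecular identifiers (UMIs). Each of the 6 conditions had 1 library. The untreated cells received no virus and no drug, and the scrambled shRNA cells received a control lentivirus and no drug. The other 4 libraries had 2 µM erlotinib, an EGFR kinase inhibitor, for 1 day. One of them also had CPI-455, an inhibitor of KDM5 histone demethylases, at 6.25 µM for 4 days. The remaining 3 were transduced with lentivirus and met erlotinib on day 4 after transduction (KDM5A shRNA), day 5 (KDM5A and KDM5B shRNA) or day 6 (KDM5A cDNA). Transduced cells were kept in 10% serum after the virus was washed off, and the growth medium of the others held 5%. No library had erlotinib without a change to KDM5, so erlotinib and those changes cannot be told apart. The labels do not settle when within the 4 days of CPI-455 the erlotinib was added. All libraries come from 1 line.

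Kept cells numbered between 131 and 1166 per library, with 590091 to 3956647 UMIs in all. The 2 deepest libraries were the untreated one and KDM5A shRNA. Levels are given as CPM, the UMIs of a gene scaled to the same total in every library, and brackets hold exact 95% Poisson intervals that cover counting error only. At 3 counts, the limit that a count of 0 allows lay between 0.758 CPM (untreated) and 5.08 CPM (KDM5A cDNA). Mitochondrial transcripts made up 3.98% and 5.03% of UMIs without erlotinib and between 7.04% and 9.18% with it. Intronless gene copies, or processed pseudogenes, took 2.90% of UMIs with CPI-455, 3.42% with KDM5A cDNA and 2.49% with KDM5A and KDM5B shRNA, against 1.02% to 1.38% in the other 3. The 6 epithelial markers summed to between 7877 and 11787 CPM, while the leukocyte, fibroblast and endothelial lists reached at most 2.76, 6.89 and 12.4 CPM, with PTPRC, CD3D and DCN at 0 in every library. Only 1 barcode was shared between libraries. KDM5A stood at 56.4 CPM (45.3 to 69.3) with KDM5A shRNA and 41.3 (27.9 to 59.0) with KDM5A and KDM5B shRNA. With KDM5A cDNA it stood at 164 (133 to 201). Scrambled cells stood at 81.9, with an interval that began at 67.0 and so overlapped that of KDM5A shRNA. Untreated cells, at 121 (110.5 to 132), lay above scrambled cells with intervals that did not overlap. CPI-455 stood at 120.2 (98.3 to 145), and its interval overlapped that of scrambled cells. KDM5B stood at 138 CPM (112 to 168) in the library labelled KDM5A and KDM5B shRNA and 151 (133 to 171) with KDM5A shRNA. It stood at 102 (81.8 to 125) with CPI-455 and 94.9 (71.7 to 123) with KDM5A cDNA. Without erlotinib it stood at 60.4 (53.0 to 68.6) in untreated and 46.4 (35.4 to 59.7) in scrambled cells. All erlotinib libraries thus lay above both others, so no KDM5B fall against scrambled cells was seen under that label. The KDM5A and KDM5B shRNA library had an interval overlapping that of KDM5A shRNA, and is called below by its label only.

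The response is read from DNA through a composite element at which ATF4 pairs with a C/EBP factor, written here as TGATGNAA and searched on both strands. Among 27 members with a RefSeq promoter window, the 250 bases before the start held it in 5, or 18.5%, against 3.89% of 27305 genes. The stricter spelling TGATGCAA, which is one case of the first, was found in 3 of the 27, or 11.1%, against 0.967%. A match describes the letters of a window and is not a binding site. The stretches with a match are shown because they hold the letters by which this set of genes was searched, with the element in capitals, written 5′ to 3′ in the direction of the gene, from RefSeq's GRCh38.p14, which is not the build of the deposited counts.
IARS, chr9:92293698-92293740, minus strand: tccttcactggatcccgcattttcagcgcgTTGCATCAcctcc
AARS, chr16:70289656-70289723, minus strand: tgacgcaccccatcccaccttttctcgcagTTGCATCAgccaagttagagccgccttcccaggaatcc
GARS, chr7:30594815-30594877, plus strand: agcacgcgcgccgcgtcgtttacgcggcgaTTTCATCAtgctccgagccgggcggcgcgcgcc
CHAC1, chr15:40953232-40953299, plus strand: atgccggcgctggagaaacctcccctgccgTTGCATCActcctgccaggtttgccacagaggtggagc
ASNS, chr7:97872439-97872506, minus strand: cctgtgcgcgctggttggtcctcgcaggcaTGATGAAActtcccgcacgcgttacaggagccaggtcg
ASNS reads the element forward and the others read it on the opposite strand. These 5 genes are described with their roles below, and their values did not move together: GARS and ASNS were highest with KDM5A cDNA, AARS and CHAC1 were highest in untreated cells and IARS in scrambled cells.

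The first comparison set the 4 erlotinib libraries against the 2 without it, with edgeR's quasi-likelihood test across 10445 genes and Benjamini-Hochberg adjustment at 0.05. Phenylalanyl-tRNA synthetase beta, histidyl-tRNA synthetase and the mitochondrial folate enzyme MTHFD2 were lower with erlotinib, and the amino acid transporter SLC7A5 was higher. Of 31 members tested, 1 was called higher, or 3.23%, against 10.0% of all genes, and 3 were called lower, or 9.68%, against 13.5%. All erlotinib libraries lay above both others for 2 members (6.45%, against 18.6% of all genes) and below both for 11 (35.5%, against 26.7%). The median log2 fold was -0.37 over the 31 members and 0.01 over all genes tested. CHAC1 and SESN2 did not pass the filter on low counts. On simulated counts the test recovered 11 of 100 changes of 2-fold and 89 of 100 of 4-fold, so a gene not called may still differ. Every simulated gene had the same spread and far fewer genes changed than were called here, so these rates need not hold for the data. In the edgeR fit of the data the share of calls in the set was no larger than that of all genes, in either direction. Without the filter on low counts 7 of 33 members were called lower, against 6.85% of 25807 genes. Only 10445 of those genes pass the filter, while 31 of the 33 members do, so these shares are not alike.

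**Figure D1:**
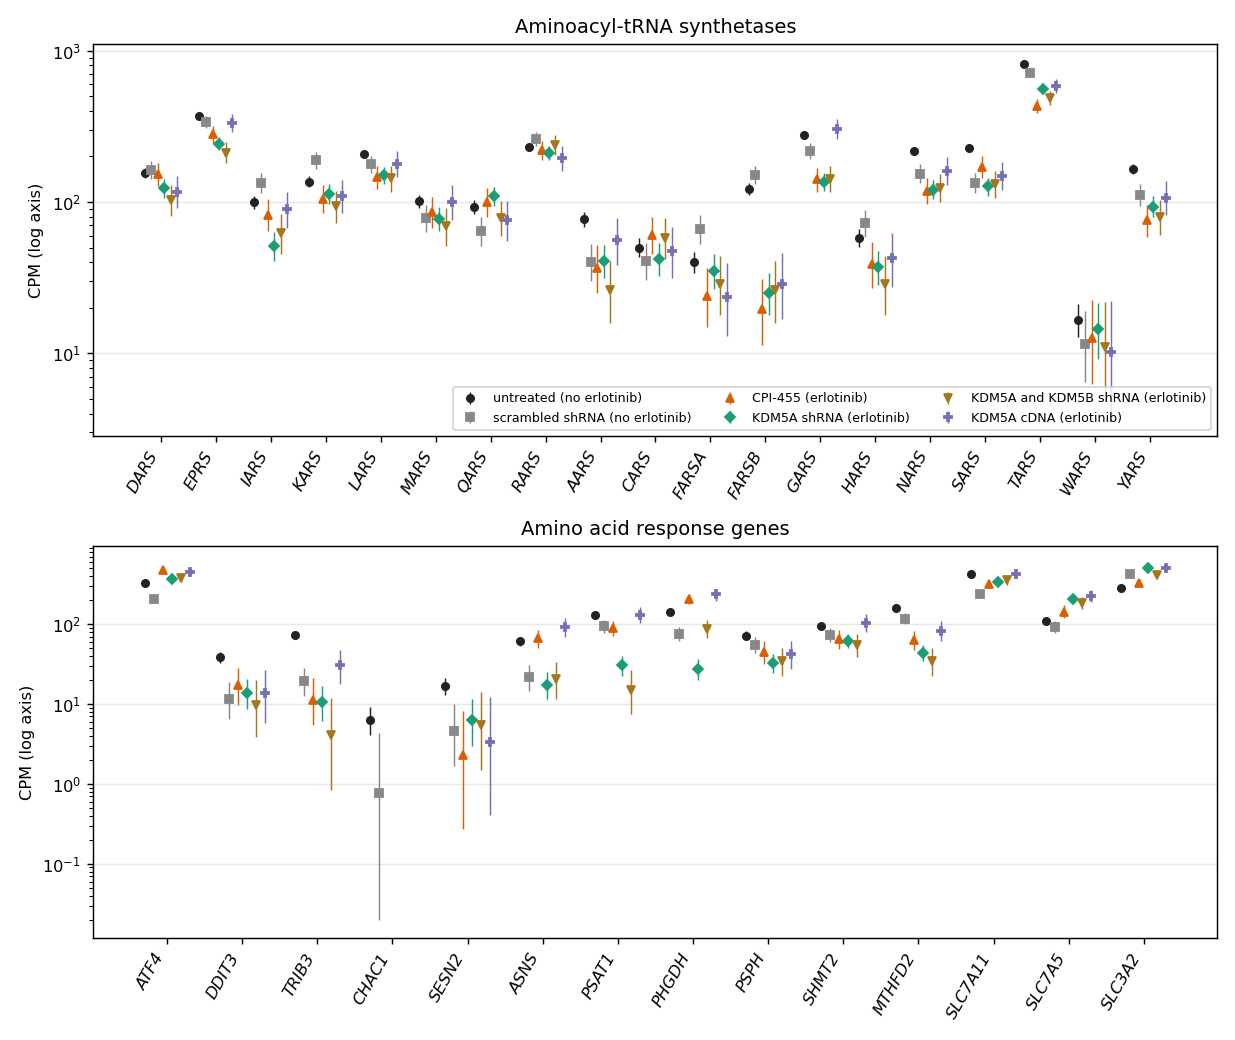
CPM (log axis) of the 33 genes with values in each of the 6 libraries, synthetases above and amino acid response genes below, with exact 95% Poisson intervals as bars. FARSB falls into separate groups of 19.5 to 28.8 CPM with erlotinib and 122 and 151 CPM without, while CHAC1 has no point in the erlotinib libraries because its count there was 0.

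Among the synthetases the fold was below 0 for 17 of 19, with a median of -0.42, against 49.5% of all genes below 0. Called lower were 2 of the 19, or 10.5%, against 13.5% of all genes. Summed over these 19 genes, synthetase transcripts came to 3462 CPM (3404 to 3520.0) in untreated and 3123 CPM (3027 to 3220.4) in scrambled cells. With erlotinib they came to 2300.4 CPM (2201 to 2403) with CPI-455, 2715 (2584 to 2851) with KDM5A cDNA, 2310.2 (2236 to 2386) with KDM5A shRNA and 2144 (2039 to 2253) with KDM5A and KDM5B shRNA. All erlotinib libraries lay below both others, and KDM5A cDNA lay above the other 3. CPM is a share of the library's UMIs, so fewer copies per cell and more RNA of other genes cannot be told apart. Over 15 alternative fits the number of synthetases below 0 lay between 13 and 17, the lowest when only transduced libraries entered.

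FARSB had the largest fold of the members tested. FARSA and FARSB encode the alpha and beta subunits of phenylalanyl-tRNA synthetase, an enzyme of paired subunits. FARSB stood at 122 CPM in untreated and 151 CPM in scrambled cells, and at 19.5 with CPI-455, 28.8 with KDM5A cDNA, 25.1 with KDM5A shRNA and 26.2 with KDM5A and KDM5B shRNA. The groups did not overlap, and the erlotinib libraries lay within 1.48-fold of each other (0.711 to 3.09). Its log2 fold change was -2.42, or 5.35-fold lower (SE 0.24, edgeR adjusted p = 0.000171). Its call held in all 15 alternative fits, at folds between -2.63 and -2.24 and adjusted p between 9.02e-15 and 0.00332. Its named pseudogene FARSBP1 had 2 UMIs over all libraries against 771.

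FARSA, the catalytic subunit, stood at 40.2 CPM in untreated and 66.4 CPM in scrambled cells. With erlotinib it stood at 24.0 with CPI-455, 23.7 with KDM5A cDNA, 35.1 with KDM5A shRNA and 28.9 with KDM5A and KDM5B shRNA. The groups did not overlap, but the fold of -0.84 did not pass (SE 0.30, edgeR adjusted p = 0.0674). FARSB made up 75.2% of the UMIs of both subunits in untreated cells (exact 95% interval 71.7 to 78.5) and 69.5% (63.8 to 74.8) in scrambled cells. With erlotinib its share was 44.7% (28.6 to 61.7) with CPI-455, 54.8% (36.0 to 72.7) with KDM5A cDNA, 41.7% (31.7 to 52.2) with KDM5A shRNA and 47.5% (31.5 to 63.9) with KDM5A and KDM5B shRNA. The 4 shares with erlotinib were below both others, but the interval with KDM5A cDNA overlapped both of those without the drug, and that with KDM5A and KDM5B shRNA overlapped the interval of scrambled cells. The share itself depends on how well each transcript is captured, so only its difference between libraries is read.

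**Figure D2:**
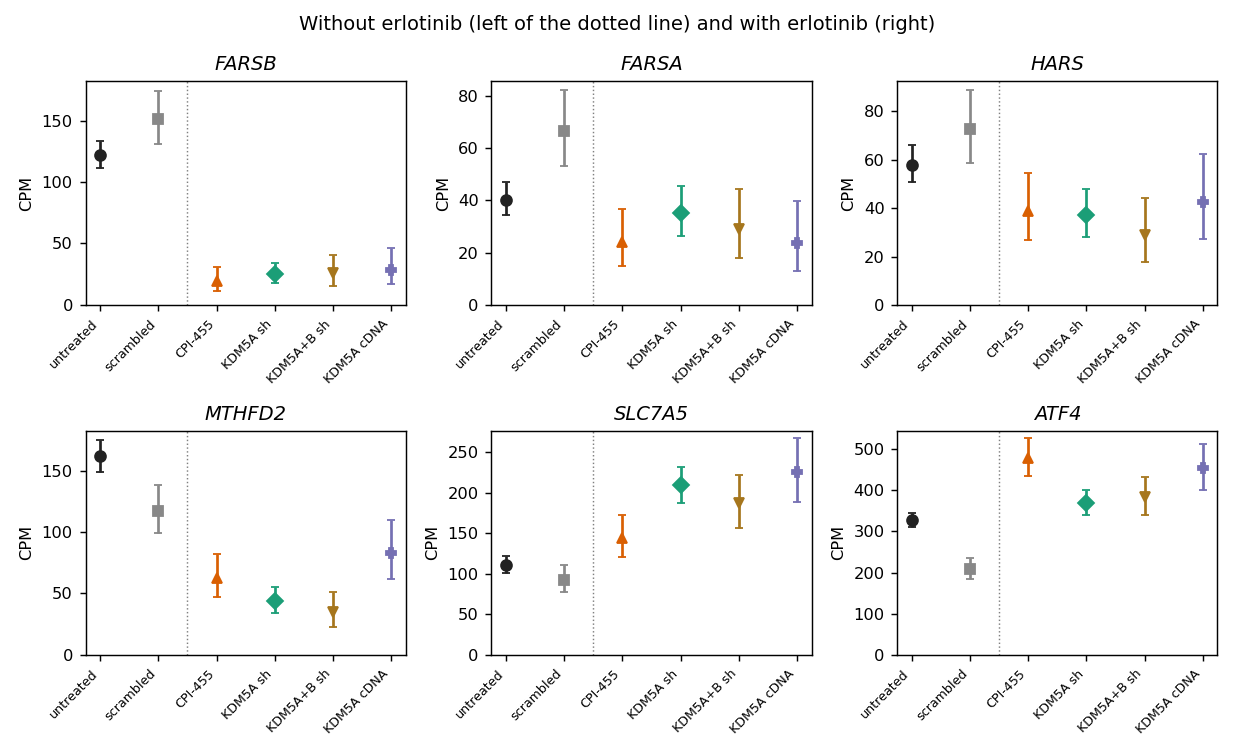
CPM of FARSB, FARSA, HARS, MTHFD2, SLC7A5 and ATF4 in each library, with exact 95% Poisson intervals as bars and each vertical axis starting at 0. The 2 libraries left of the dotted line had no erlotinib and have points that do not overlap those of the 4 on the right in any of these genes.

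HARS, the histidine enzyme, stood at 57.9 CPM in untreated and 72.6 CPM in scrambled cells, and at 38.9 with CPI-455, 42.4 with KDM5A cDNA, 37.0 with KDM5A shRNA and 28.9 with KDM5A and KDM5B shRNA. The groups did not overlap, and the log2 fold change of HARS was -0.78 (SE 0.24, edgeR adjusted p = 0.0418). The call ended when any 1 of the 6 libraries was left out, with edgeR adjusted p between 0.0524 without KDM5A cDNA and 0.227 without scrambled shRNA, with DESeq2 (adjusted p = 0.101), with cells thinned to 1000 UMIs (edgeR adjusted p = 0.288), in the 4 transduced libraries alone (edgeR adjusted p = 0.0851) and when the split of the libraries by their share of processed pseudogenes was a second term (edgeR adjusted p = 0.239). The 3′ end of HARS overlaps that of WDR55 on the other strand, and whether the counting used strand is not given in the sources used here.

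The other synthetases with separate groups were DARS, EPRS, IARS and KARS of the multisynthetase complex, and TARS and YARS, with edgeR adjusted p between 0.0738 and 0.277. The complex holds 8 of the members, among them EPRS, which serves both glutamate and proline. In edgeR 0 of the 8 passed, and 2 had an unadjusted p under 0.05. DESeq2 and limma-voom also called 0 of them. EPRS stood at 372 and 339 CPM without erlotinib, 280.4 with CPI-455, 334 with KDM5A cDNA, 242 with KDM5A shRNA and 212 with KDM5A and KDM5B shRNA, so KDM5A cDNA lay close to scrambled cells. DARS, the aspartate enzyme, stood at 156 and 163 CPM without erlotinib, 152 with CPI-455, 117 with KDM5A cDNA, 123 with KDM5A shRNA and 103 with KDM5A and KDM5B shRNA. KARS, the lysine enzyme, stood at 136 and 189 CPM without erlotinib, 105 with CPI-455, 110.2 with KDM5A cDNA, 113 with KDM5A shRNA and 93.7 with KDM5A and KDM5B shRNA. DARS with CPI-455 thus lay close to untreated cells, while KARS was of like level in all erlotinib libraries. IARS, the isoleucine enzyme, stood at 99.8 and 134 CPM without erlotinib, 82.4 with CPI-455, 89.8 with KDM5A cDNA, 51.4 with KDM5A shRNA and 62.0 with KDM5A and KDM5B shRNA. The lowest IARS levels were those of both KDM5 shRNA libraries. TARS, the threonine enzyme, stood at 816 and 715 CPM without erlotinib, 431 with CPI-455, 585 with KDM5A cDNA, 562 with KDM5A shRNA and 488 with KDM5A and KDM5B shRNA. YARS, for tyrosine, stood at 165 and 111 CPM without erlotinib, 75.5 with CPI-455, 107 with KDM5A cDNA, 93.3 with KDM5A shRNA and 79.9 with KDM5A and KDM5B shRNA, so its highest erlotinib library, KDM5A cDNA, lay close to scrambled cells.

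GARS and NARS, the glycine and asparagine enzymes, had overlapping groups because of 1 library. GARS stood at 277 CPM (261 to 294) in untreated and 218 CPM (193 to 245) in scrambled cells, 141 with CPI-455, 135 with KDM5A shRNA and 142 with KDM5A and KDM5B shRNA, but at 303 CPM (261 to 351) with KDM5A cDNA. It was the highest of all libraries there and 2.24-fold above KDM5A shRNA (1.83 to 2.75). Without the KDM5A cDNA library GARS was called lower with erlotinib at a log2 fold of -0.78 (edgeR adjusted p = 0.0321), against -0.42 with it (SE 0.33, edgeR adjusted p = 0.377). NARS stood at 217 and 154 CPM without erlotinib, 119 with CPI-455, 120.3 and 124 in the shRNA libraries, and 161 CPM with KDM5A cDNA. For GARS the KDM5A cDNA library thus stood apart from the other 3 erlotinib libraries. For NARS it was the highest of the 4, but its interval (130.3 to 197) overlapped those of the other 3. Highest and lowest were 1.35-fold apart (1.01 to 1.80).

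AARS and SARS, for alanine and serine, were highest in untreated cells, with scrambled cells at the level of the erlotinib libraries. AARS stood at 77.1 CPM in untreated cells, 40.2 in scrambled cells, and 36.6, 40.7, 26.2 and 55.9 CPM with CPI-455, KDM5A shRNA, KDM5A and KDM5B shRNA and KDM5A cDNA. SARS stood at 227 CPM in untreated and 134 in scrambled cells, and at 171, 127, 131 and 149 CPM in the same erlotinib libraries. QARS, the glutamine enzyme, had the largest fold above 0 of the synthetases at 0.26, which did not pass (SE 0.24, edgeR adjusted p = 0.464). It stood at 93.0 CPM in untreated and 64.1 in scrambled cells, and at 99.6, 109, 78.5 and 76.3 CPM with erlotinib in the same order. CARS, LARS, MARS, RARS and WARS, for cysteine, leucine, methionine, arginine and tryptophan, had overlapping groups and folds between -0.28 and 0.22, and WARS was the scarcest synthetase, with 129 UMIs over all libraries. MARS and DDIT3 overlap at their 3′ ends on opposite strands, so with strand use unstated their reads may not be told apart.

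**Figure D3:**
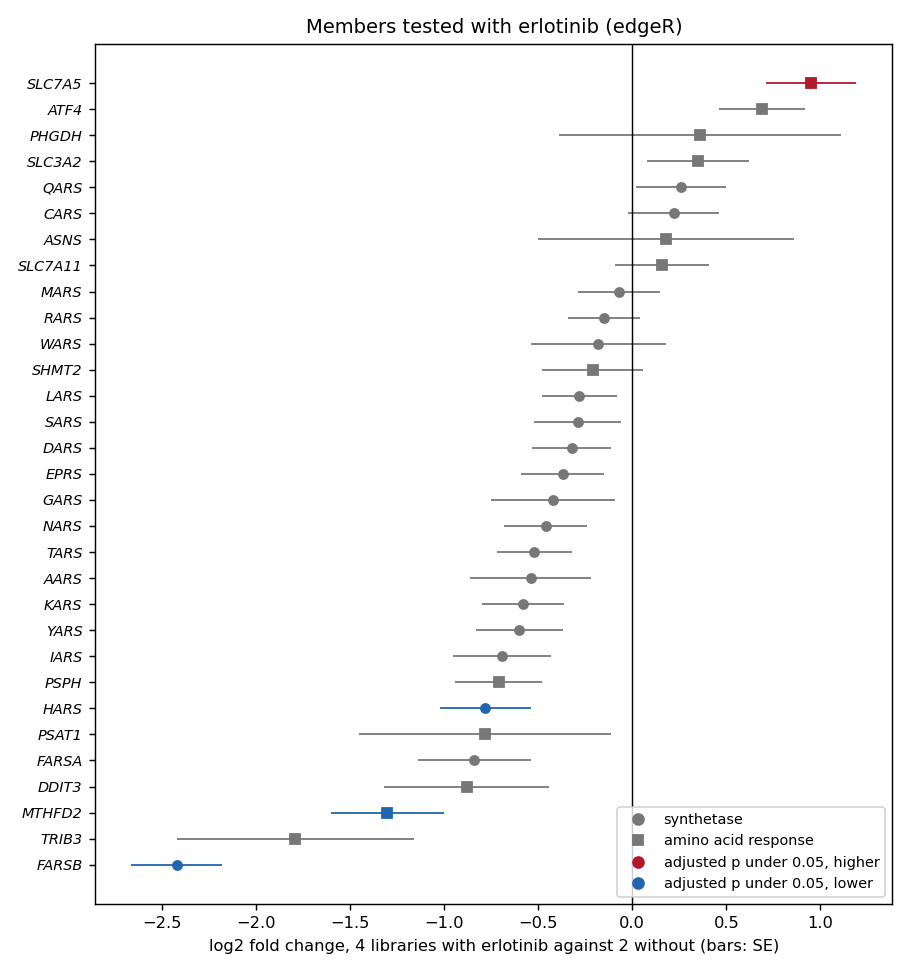
Log2 fold change of the 31 tested members between the 4 libraries with erlotinib and the 2 without, with standard errors as bars. FARSB at -2.42, HARS and MTHFD2 in blue and SLC7A5 at 0.95 in red passed an edgeR adjusted p of 0.05, and 17 of 19 synthetases (circles) lie left of 0.

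None of the 3 factors of the response that were tested, ATF4, TRIB3 and DDIT3, passed in edgeR, where 2 had an unadjusted p under 0.05, while DESeq2 called ATF4 higher and TRIB3 lower and limma-voom called ATF4. ATF4 stood at 328 CPM (310 to 346) in untreated and 209 CPM (184 to 235) in scrambled cells, and at 479.5 with CPI-455, 454 with KDM5A cDNA, 370.2 with KDM5A shRNA and 384 with KDM5A and KDM5B shRNA. All erlotinib libraries lay above both others, at a fold of 0.69 that just missed the threshold (SE 0.23, edgeR adjusted p = 0.0507). ATF4 was called higher in 8 of 15 alternative fits, with adjusted p between 0.0319 and 0.332, and its log2 fold was 0.42 without the scrambled library. ATF4 is controlled largely in translation, which these counts do not measure. Its processed pseudogenes ATF4P3 and ATF4P4 held 109 UMIs together, 3.49% of the gene's 3124.

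TRIB3, a pseudokinase that restrains ATF4, stood at 73.5 CPM (65.3 to 82.5) in untreated and 19.3 CPM (12.5 to 28.5) in scrambled cells. With erlotinib it stood at 11.4 with CPI-455, 30.5 with KDM5A cDNA, 10.6 with KDM5A shRNA and 4.13 (3 UMIs) with KDM5A and KDM5B shRNA. The groups overlapped because KDM5A cDNA lay above scrambled cells, and the fold of -1.79 did not pass (SE 0.63, edgeR adjusted p = 0.0693). It was -0.54 without the untreated library, and TRIB3 was called lower at -2.32 without KDM5A cDNA (edgeR adjusted p = 0.0258) and at -2.41 without scrambled shRNA (edgeR adjusted p = 0.0197). DDIT3, the factor also called CHOP, stood at 38.4 CPM in untreated cells and 11.6 in scrambled cells, and at 17.2, 13.8, 9.64 and 13.6 CPM with CPI-455, KDM5A shRNA, KDM5A and KDM5B shRNA and KDM5A cDNA. Its fold of -0.88 did not pass (SE 0.44, edgeR adjusted p = 0.165), and it was called lower only without the scrambled library, at -1.43 (edgeR adjusted p = 0.0308), and turned to 0.22 without the untreated one.

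CHAC1 and SESN2 were scarce and were mostly found in untreated cells. CHAC1, which degrades glutathione, had 25 UMIs in untreated cells (6.32 CPM), 1 in scrambled cells and no row in the erlotinib tables, which was read as 0. Over the groups it was at least 6.25-fold lower with erlotinib, computed against 3 counts over the 4 libraries, and the exact interval of the ratio began at 4.73-fold. SESN2, a leucine sensor upstream of mTORC1, stood at 16.7 CPM in untreated cells, 4.64 in scrambled cells and 2.29, 6.26, 5.51 and 3.39 CPM with CPI-455, KDM5A shRNA, KDM5A and KDM5B shRNA and KDM5A cDNA. It had 18 UMIs with erlotinib and 72 without, a 2.88-fold difference (1.70 to 5.14). For both, the scrambled library lay with the erlotinib libraries, so the difference between groups rests on untreated cells.

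Of 29 members with at least 50 UMIs over the erlotinib libraries, PSAT1, PHGDH and ASNS had the largest ratios between the highest and the lowest of these libraries. PHGDH, PSAT1 and PSPH carry out the successive steps from glycolysis to serine. PHGDH, the first, stood at 143 CPM (131 to 155) in untreated and 75.7 (61.5 to 92.3) in scrambled cells. With erlotinib it stood at 209 (180 to 242) with CPI-455, 236 (198 to 278) with KDM5A cDNA, 27.6 with KDM5A shRNA and 88.2 (67.9 to 113) with KDM5A and KDM5B shRNA. The erlotinib libraries thus held both the highest and the lowest PHGDH levels, 8.55-fold apart (6.05 to 12.3). The fold with erlotinib was 0.36 (SE 0.75, edgeR adjusted p = 0.760).

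PSAT1, the second enzyme, stood at 132 CPM in untreated and 94.3 in scrambled cells. With erlotinib it stood at 89.3 with CPI-455, 130.5 (103 to 163) with KDM5A cDNA, 30.7 (22.7 to 40.6) with KDM5A shRNA and 15.2 (7.57 to 27.1) with KDM5A and KDM5B shRNA. Highest and lowest were 8.61-fold apart (4.55 to 18.0). PHGDH and PSAT1 did not follow each other in the KDM5A and KDM5B shRNA library, where PSAT1 was at its lowest and PHGDH was above scrambled cells by less than counting error. PSPH, the last enzyme, showed no such spread: it stood at 72.3 and 55.6 CPM without erlotinib and at 44.6 with CPI-455, 42.4 with KDM5A cDNA, 32.6 with KDM5A shRNA and 34.4 with KDM5A and KDM5B shRNA. The groups did not overlap, and its fold of -0.71 just missed the threshold (SE 0.23, edgeR adjusted p = 0.0506).

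ASNS, which makes asparagine and is the best known target of ATF4, stood at 61.2 CPM (53.7 to 69.4) in untreated and 21.6 (14.4 to 31.3) in scrambled cells. With erlotinib it stood at 66.4 (50.4 to 85.8) with CPI-455, 91.5 (68.7 to 119) with KDM5A cDNA, 17.5 (11.7 to 25.3) with KDM5A shRNA and 20.7 (11.6 to 34.1) with KDM5A and KDM5B shRNA. Both KDM5 shRNA libraries lay at the level of scrambled cells, and CPI-455 and KDM5A cDNA at or above that of untreated cells, 5.22-fold apart at most (3.25 to 8.55). Its fold with erlotinib was 0.18 (SE 0.68, edgeR adjusted p = 0.872). CPI-455 and KDM5A cDNA also had the 2 highest shares of processed pseudogene UMIs and of mitochondrial UMIs, and the part of these in the ASNS and PHGDH levels was not tested. The KDM5A and KDM5B shRNA library, also high in pseudogenes, had low ASNS and PSAT1.

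MTHFD2 and SHMT2 are mitochondrial enzymes that turn serine into one-carbon units. MTHFD2 stood at 162 CPM in untreated and 117 in scrambled cells, and at 62.9 with CPI-455, 83.0 with KDM5A cDNA, 43.8 with KDM5A shRNA and 34.4 with KDM5A and KDM5B shRNA. The groups did not overlap, and its log2 fold change was -1.30 (SE 0.30, edgeR adjusted p = 0.0129). The call ended without the untreated library (-1.11, edgeR adjusted p = 0.0758), in the 4 transduced libraries alone (-1.16, edgeR adjusted p = 0.111) and with cells thinned to 1000 UMIs (-0.93, edgeR adjusted p = 0.0854). SHMT2 ranged from 55.1 to 103 CPM, with overlapping groups and a fold of -0.21 (SE 0.27, edgeR adjusted p = 0.595).

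The 3 transporter genes had folds above 0, and 1 of them passed. SLC7A5 encodes LAT1, which imports leucine and other large neutral amino acids, and SLC3A2 encodes the heavy chain it shares with SLC7A11, the cystine importer xCT. SLC7A5 stood at 111 CPM in untreated and 92.7 in scrambled cells, and at 144 with CPI-455, 225 with KDM5A cDNA, 209 with KDM5A shRNA and 187 with KDM5A and KDM5B shRNA. The groups did not overlap, and SLC7A5 rose by 0.95 on the log2 scale, 1.93-fold (SE 0.24, edgeR adjusted p = 0.0174). The call ended without untreated, scrambled shRNA or KDM5A and KDM5B shRNA (edgeR adjusted p = 0.0516 for the last), at folds between 0.85 and 1.03. It also ended with the pseudogene split as a second term, where erlotinib rests on KDM5A shRNA alone, at a fold of 1.09. SLC7A11 stood at 432 CPM in untreated and 237 in scrambled cells, and at 319, 341, 355 and 429 CPM with CPI-455, KDM5A shRNA, KDM5A and KDM5B shRNA and KDM5A cDNA, with a fold of 0.16 (SE 0.25, edgeR adjusted p = 0.686). An antisense transcript, SLC7A11-AS1, overlaps its 3′ end and had 121 UMIs. SLC3A2 lay between 285 and 511 CPM with overlapping groups (0.35, SE 0.27, edgeR adjusted p = 0.362).

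The next comparisons set single libraries side by side, which addresses the KDM5 manipulations but has no replicates and therefore no test. A gene was counted when it differed by 1.5-fold or more and had at least 50 UMIs over both libraries. Against scrambled shRNA, KDM5A shRNA was higher in 3 of 28 members (10.7%, against 21.9% of all genes) and lower in 10 (35.7%, against 28.0%). KDM5A and KDM5B shRNA was higher in 2 of 27 (7.41%, against 22.6%) and lower in 12 (44.4%, against 31.9%). KDM5A cDNA was higher in 5 of 28 (17.9%, against 19.5%) and lower in 4 (14.3%, against 31.1%). These 3 pairs share the scrambled library and each also contains the erlotinib difference.

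In all 3 of these pairs ATF4 and SLC7A5 were higher past 1.5-fold and KARS, FARSA, FARSB and HARS were lower. ATF4 was 1.77-fold (1.53 to 2.06), 1.84-fold (1.55 to 2.19) and 2.18-fold (1.83 to 2.59) above scrambled cells with KDM5A shRNA, KDM5A and KDM5B shRNA and KDM5A cDNA. SLC7A5 was 2.25-fold (1.82 to 2.80), 2.02-fold (1.57 to 2.61) and 2.43-fold (1.89 to 3.14) above, in the same order. Both shRNA libraries were also lower in IARS, GARS, PSAT1, PSPH and MTHFD2. QARS passed only with KDM5A shRNA, at 1.70-fold (1.30 to 2.24), PHGDH was lower only there, at a ratio of 0.364 (0.249 to 0.525), and DARS, EPRS and AARS were lower only with KDM5A and KDM5B shRNA. The AARS interval, at a ratio of 0.652 (0.364 to 1.12), includes 1.

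The KDM5A cDNA library lay above scrambled cells in some enzymes and below them in others. Lower were PSPH, at 42.4 against 55.6 CPM, and MTHFD2, at 83.0 against 117, with intervals that overlapped. PHGDH and ASNS were above scrambled cells with CPI-455 too, at 209 and 66.4 CPM. Relative to scrambled cells the cDNA library had 4.23-fold more ASNS (2.63 to 6.94) and 3.11-fold more PHGDH (2.39 to 4.07). It had 1.81-fold more of the transporter SLC7A11 (1.52 to 2.14) and 1.38-fold more PSAT1 (1.03 to 1.86). PSAT1 was instead at a ratio of 0.326 (0.229 to 0.457) with KDM5A shRNA and 0.161 (0.0782 to 0.298) with KDM5A and KDM5B shRNA. The 6 enzymes summed to 686 CPM (621 to 757) with KDM5A cDNA, 215 (193 to 239) with KDM5A shRNA, 248 (213 to 287) with KDM5A and KDM5B shRNA and 439 (403 to 476) in scrambled cells, so the shRNA libraries lay below scrambled cells and the cDNA library above. Untreated cells, at 664 CPM (639 to 690.3), had an interval that overlapped that of the cDNA library, and CPI-455 stood at 538 (490.4 to 589). The 14 response genes together were at a ratio of 1.63 (1.52 to 1.75) with KDM5A cDNA, 1.17 (1.10 to 1.24) with KDM5A shRNA and 1.12 (1.04 to 1.20) with KDM5A and KDM5B shRNA. The synthetases together were at 0.869 (0.820 to 0.921), 0.740 (0.707 to 0.774) and 0.687 (0.647 to 0.728) in the same order. Gene by gene, the median log2 ratio of response genes was 0.67 with KDM5A cDNA, where 2 of 10 lay below 0. It was -0.27 with KDM5A shRNA (6 of 10 below 0) and -0.04 with KDM5A and KDM5B shRNA (5 of 9). The sums above 1 in the shRNA libraries thus do not stand for most of these genes. Whether these libraries differ beyond the spread between cultures was not tested, since each is 1 library, and the cDNA library met erlotinib later after transduction than the others.

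**Figure D4:**
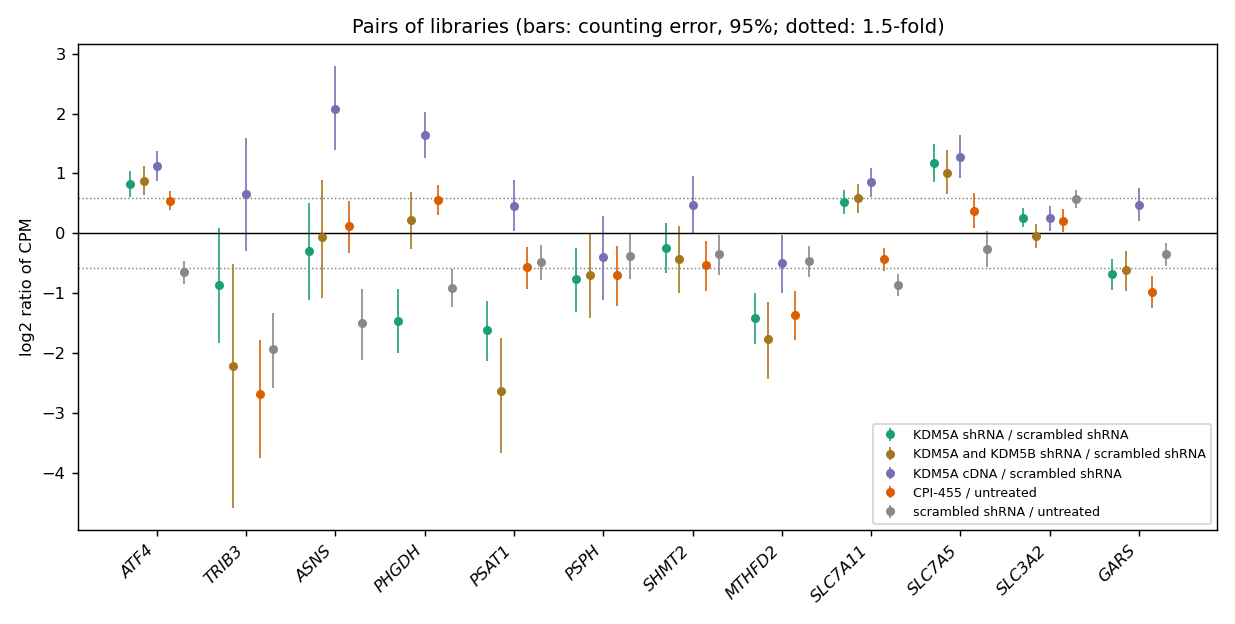
Log2 ratio of CPM for 12 members in the 5 pairs of libraries, with 95% intervals for counting error as bars and dotted lines at 1.5-fold. ASNS, PHGDH and PSAT1 lie above 0 for KDM5A cDNA against scrambled shRNA, while PSAT1 lies well below 0 for both shRNA libraries.

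CPI-455 with erlotinib was compared with untreated cells, which share its lack of virus. Of 32 members 0 were higher past 1.5-fold, against 18.9% of all genes, and 12 were lower (37.5%, against 30.4%). The synthetases among the 12 were AARS, FARSA, FARSB, GARS, NARS, TARS and YARS, with ratios between 0.160 (0.0923 to 0.258) for FARSB and 0.598 (0.360 to 0.946) for FARSA. The response genes were TRIB3 at 0.156 (0.0738 to 0.290), SESN2 at 0.137 (0.0163 to 0.516, from 2 UMIs), MTHFD2 at 0.389 (0.290 to 0.513), DDIT3 at 0.447 (0.244 to 0.761) and PSPH at 0.617 (0.430 to 0.865). ATF4 and PHGDH lay just inside the threshold on the high side, at 1.46 (1.31 to 1.63) and 1.47 (1.24 to 1.74). Synthetases together were at a ratio of 0.665 (0.634 to 0.696) and response genes at 0.942 (0.892 to 0.994).

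Scrambled cells, the other drug-free library, already differed from untreated cells in the response genes. Of 32 members 1 was higher (3.12%, against 9.67% of all genes) and 9 were lower (28.1%, against 18.6%), of which 7 were among 13 response genes. TRIB3 was at a ratio of 0.263 (0.167 to 0.396), SESN2 at 0.278 (0.0984 to 0.638), DDIT3 at 0.302 (0.165 to 0.513) and ASNS at 0.354 (0.230 to 0.524). PHGDH followed at 0.531 (0.424 to 0.659), SLC7A11 at 0.549 (0.485 to 0.621) and ATF4 at 0.636 (0.556 to 0.726). The synthetases on the low side were AARS at 0.521 (0.381 to 0.701) and SARS at 0.592, and FARSA was the member on the high side, at 1.65 (1.26 to 2.16). The response genes summed to a ratio of 0.736 (0.699 to 0.774) and the synthetases to 0.902 (0.871 to 0.934). These libraries differ in virus, serum and depth per cell, a median of 3343 UMIs against 1493.5. They also differ in the share of kept barcodes that end in the letter N, 22.8% in scrambled against 3.52% in untreated cells. That share lay between 26.0% and 31.6% in the erlotinib libraries. Which of these differences goes with the ratios was not tested.

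Other genes of the pathway were taken from lists. Of the 3 scaffolds of the multisynthetase complex and the tRNA exporter XPOT, 3 of 4 fell (75.0%, against 13.5% of all genes) and 0 rose: AIMP2 by 1.17 (SE 0.22, edgeR adjusted p = 0.00486), EEF1E1 by 1.00 (SE 0.24, edgeR adjusted p = 0.0132) and AIMP1 by 0.66 (SE 0.20, edgeR adjusted p = 0.0389) on the log2 scale. AIMP2 stood at 127 and 167 CPM without erlotinib and between 56.1 and 72.9 CPM with it. The scaffolds thus passed the test while none of the 8 synthetases they bind did, though a difference between these lists was not tested. Of 14 tested mitochondrial synthetases 2 fell, among them SARS2 by 1.26 (SE 0.42, edgeR adjusted p = 0.0497) on the same scale, and 0 rose. That is 14.3%, near the 13.5% of all genes. The calls in both lists ended with the processed-pseudogene split of the libraries as a second term, where erlotinib rests on KDM5A shRNA alone. With libraries left out in turn AIMP2 kept its call. EEF1E1 lost it without scrambled shRNA or the library labelled KDM5A and KDM5B shRNA, AIMP1 without any library except KDM5A shRNA, and SARS2 without any 1 library. DESeq2 called 0 of the 14 mitochondrial synthetases.

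Upstream of ATF4, 5 of 16 eIF2 kinases and regulators fell (31.2%, against 13.5% of all genes) and 1 rose (6.25%, against 10.0%), all given as log2 fold changes. EIF2AK4, the kinase GCN2, fell by 0.81 (SE 0.21, edgeR adjusted p = 0.0200), and GCN1L1, its activator on ribosomes, fell by 1.38 (SE 0.29, edgeR adjusted p = 0.00742). EIF2S1, the subunit of eIF2 that is phosphorylated, fell by 1.07 (SE 0.25, edgeR adjusted p = 0.0127), as did the exchange factor subunits EIF2B2 by 1.16 and EIF2B3 by 1.94 (edgeR adjusted p = 0.0220 and 0.00314). PPP1R15A, which directs the phosphatase that restores eIF2, rose by 1.62 (SE 0.29, edgeR adjusted p = 0.00345), from 66.0 and 33.2 CPM without erlotinib to between 125 and 175 CPM with it. All 4 erlotinib libraries lay above both others for PPP1R15A, and its call held in all 15 alternative fits. Those of GCN1L1 and EIF2B3 held whichever library was left out. They ended with the pseudogene split as a term, where erlotinib rests on KDM5A shRNA alone. EIF2S1 lost its call without scrambled shRNA, EIF2AK4 without that library or KDM5A and KDM5B shRNA, and EIF2B2 without untreated, scrambled shRNA or CPI-455. All of EIF2S1, EIF2AK4 and EIF2B2 also lost it with cells thinned to 1000 UMIs. In that fit 1 of 10 tested genes of the list was called lower, against 11.9% of all genes.

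Of 17 further ATF4 targets and partners 2 rose and 2 fell, 11.8% each and near the shares of all genes (10.0% and 13.5%), again as log2 fold changes. The stress factors ATF3 and NUPR1 rose by 2.45 (SE 0.74, edgeR adjusted p = 0.0460) and 2.73 (SE 0.76, edgeR adjusted p = 0.0322), while the transaminases GPT2 and GOT1 fell by 1.34 (SE 0.34, edgeR adjusted p = 0.0173) and 1.52 (SE 0.39, edgeR adjusted p = 0.0194). ATF3 stood at 16.7 and 1.55 CPM without erlotinib, 25.2 with CPI-455, 39.0 with KDM5A cDNA, 94.6 with KDM5A shRNA and 60.6 with KDM5A and KDM5B shRNA. Its call ended without scrambled shRNA or any 1 of the 3 transduced erlotinib libraries, that of NUPR1 without CPI-455, KDM5A shRNA or KDM5A cDNA, and both with limma-voom. The calls of GPT2 and GOT1 ended without untreated or KDM5A and KDM5B shRNA, and in the transduced libraries only. That of GOT1 also ended with DESeq2. Those of NUPR1, GPT2 and GOT1 ended with the pseudogene split as a term, where erlotinib rests on KDM5A shRNA alone. None of 5 further amino acid transporters or 8 endoplasmic reticulum stress genes passed edgeR, DESeq2 or limma-voom, and in edgeR 0 of either list reached an unadjusted p under 0.05. SLC38A1 and SLC38A2, glutamine carriers, stood at 0.01 (SE 0.19, edgeR adjusted p = 0.969) and 0.60 (SE 0.31, edgeR adjusted p = 0.186). The 8 reticulum stress genes, which include chaperones, the transcription factor XBP1 and the degradation component HERPUD1, were together at a ratio to scrambled cells of 1.39 (1.34 to 1.44) with KDM5A shRNA, 1.23 (1.18 to 1.29) with KDM5A and KDM5B shRNA and 0.540 (0.504 to 0.578) with KDM5A cDNA, the reverse of the order of the amino acid enzymes. HSPA5, the chaperone BiP, stood at 1381, 1159 and 430.4 CPM in these libraries and 836 CPM in scrambled cells. HSP90B1 stood at 1221, 1292 and 698 CPM there, each below the 1346 CPM of scrambled cells. With at least 50 UMIs, 3 of 8 genes lay below scrambled cells with KDM5A shRNA and 2 of 7 with KDM5A and KDM5B shRNA. With KDM5A cDNA 5 of 5 did. In the shRNA libraries the genes thus did not all move with their sum. The fold of HSP90B1 with erlotinib was -0.29 (SE 0.26, edgeR adjusted p = 0.440).

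Within the untreated library, the largest, cells were compared after each was thinned to 1000 UMIs, which left 822 of 1166. A UMI of TRIB3 was found in 62 of them, or 7.54% (5.83 to 9.57). ASNS was found in 19.4% (10.4 to 31.4) of these 62 cells and in 4.34% (3.01 to 6.04) of the 760 without TRIB3. ATF4 was found in 37.1% (25.2 to 50.3) against 24.1% (21.1 to 27.3), and PSAT1 in 16.1% (8.02 to 27.7) against 8.42% (6.55 to 10.6). PHGDH did not go with TRIB3, at 11.3% (4.66 to 21.9) against 11.4% (9.27 to 13.9). In this split the ASNS intervals did not overlap, and those of ATF4 and PSAT1 did. Between cells with and without ASNS those of PSAT1 did not overlap, at 24.4% (12.9 to 39.5) against 8.11% (6.29 to 10.3), and those of ATF4 did.

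Summed over all synthetases, a cell with TRIB3 held 4.39 UMIs on average (3.88 to 4.94) and a cell without it 3.37 (3.24 to 3.50). Split by ASNS, 45 cells with it held 5.18 synthetase UMIs (4.53 to 5.89) against 3.35 (3.22 to 3.48) in 777 without, and TRIB3 was found in 26.7% (14.6 to 41.9) against 6.44% (4.81 to 8.40). Synthetase transcripts were thus more frequent in cells that showed a UMI of either gene. Split by DDIT3, found in 21 cells, the intervals overlapped, at 3.90 synthetase UMIs (3.11 to 4.85) against 3.44 (3.31 to 3.57). Before thinning the cells with TRIB3 were the shallower, at a median of 1607 UMIs against 2172.5, and the cells with ASNS the deeper, at 2583 against 2141. These are cells of 1 library, so no test applies, and a line has no cell type known to lack the genes from which a background of free RNA could be read.

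**Figure D5:**
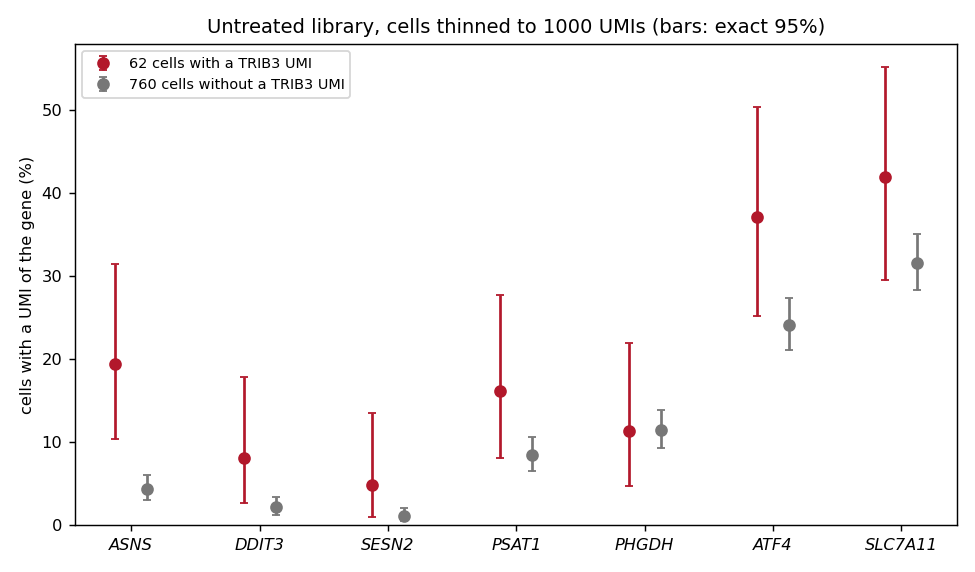
Share of untreated cells with a UMI of each of 7 response genes, split into 62 cells with and 760 without a TRIB3 UMI, each cell thinned to 1000 UMIs, where bars are exact 95% binomial intervals. ASNS was found in 19.4% and 4.34% of these cells, while the PHGDH shares were 11.3% and 11.4%.

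Across libraries the share of thinned cells with a PHGDH UMI was 25.7% (17.7 to 35.2) with KDM5A cDNA, 16.5% (11.1 to 23.0) with CPI-455, 11.4% (9.34 to 13.8) in untreated cells and 7.21% (4.18 to 11.4) in scrambled cells. The remaining shares were 5.65% (2.30 to 11.3) with KDM5A and KDM5B shRNA and 2.71% (1.25 to 5.08) with KDM5A shRNA. The order was that of the summed levels except that KDM5A and KDM5B shRNA stood above scrambled cells in CPM and below them in its share, with intervals that overlapped on both scales. The 34 PHGDH UMIs with KDM5A cDNA were spread over 27 cells, with at most 3 in a cell, and the 31 with CPI-455 over 27 cells, with at most 4.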

How the data were processed

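Drop-seq libraries of PC9, 1 per condition, were deposited as counts, whole UMIs per gene symbol and cell barcode, which the authors made with STAR and FastQC on GRCh37.p13 (hg19), per the submitters' processing notes. Versions, annotation, counting tool and strand setting are not given in the sources used here. Barcodes with at least 500 UMIs and at most 20% mitochondrial UMIs were kept, no doublet caller was used, and UMIs were summed per library. Genes were fitted with edgeR 4.0.16 (TMM, filterByExpr, robust quasi-likelihood, 10445 genes), with DESeq2 1.42.0 and limma-voom 3.58.1 among 15 alternatives. On simulated data, where every gene had the same spread, edgeR recovered 11 of 100 changes of 2-fold and 89 of 100 of 4-fold, with 6 false calls among 9970 genes. The 4 erlotinib libraries stood against 2, so p-values measure the spread between libraries of different KDM5 manipulation. Pairs of libraries have exact conditional intervals for counting error only. Gene overlaps and pseudogenes were looked up in GENCODE 29 and promoters in RefSeq.

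The members and lists were chosen with earlier results of these data known. Values in every library were given for members that passed the test or reached 1.5-fold in a pair with 50 UMIs, and for ATF4, ASNS, DDIT3, TRIB3, CHAC1 and SESN2. Of each further list the genes that passed were named, or otherwise the 2 with the most UMIs; 1 mitochondrial synthetase is not reported here. Excess variance between cells was also computed and is given only with the processing limits.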

Additional observations from a re-analysis of the deposited data

Results flagged for a closer look

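Among the 4 erlotinib libraries, 29 members with at least 50 UMIs over these libraries were screened for a library far from the other 3, and chance marks about 1 in 20 such groups. The screen was not run over all genes, so how unusual the marked members are is not known. GARS was marked with KDM5A cDNA at 303 CPM, the gap to the next library being 0.961 of the whole range. NARS was marked with KDM5A cDNA at 161 CPM, with 0.881, though its counting interval there overlapped those of the other 3.

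GARS, PHGDH and PSAT1 lay above scrambled cells in one transduced erlotinib library and below them in another, each beyond counting error, and the difference between libraries was not tested beyond that. How many of all genes do the same was not counted. GARS was at a ratio of 1.39 with KDM5A cDNA against 0.621 with KDM5A shRNA and 0.651 with KDM5A and KDM5B shRNA. PHGDH was at 3.11 with KDM5A cDNA against 0.364 with KDM5A shRNA. PSAT1 was at 1.38 with KDM5A cDNA against 0.326 with KDM5A shRNA and 0.161 with KDM5A and KDM5B shRNA.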

How the results depend on the processing

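Each condition has 1 library, so counting intervals understate the error between cultures, and with 364 TRIB3 or 26 CHAC1 UMIs in all depth limits the scarce members. No paired analysis was possible because the labels give the groups no shared replicate numbers beyond the single library of each.

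Against 1 member called higher and 3 lower, the counts were 2 higher with RLE size factors, DESeq2, limma-voom, all barcodes and cells with at least 1000 UMIs. In these fits between 9.88% and 12.0% of all genes were called higher. The fit with the pseudogene split as a term rests on KDM5A shRNA alone for erlotinib, so its count is not given. With no filter 7 of 33 members were lower, against 6.85% of 25807 genes, most of which do not pass the filter, so these shares are not alike. With cells thinned to 1000 UMIs 1 of 25 was lower, against 11.9%. Leaving out each erlotinib library in turn gave 0 to 2 higher and 2 to 4 lower. Of all genes these fits called 4.83% to 12.2% higher and 8.36% to 13.9% lower. FARSB was called lower in all 15 alternatives.

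Of 459 member folds under alternatives, 399 kept direction and side of the threshold, 22 passed newly, 17 no longer passed and 21 changed sign, none of which passed in either fit. In transduced libraries only, MARS turned to 0.07, AARS to 0.02, SARS to 0.01, WARS to 0.08 and DDIT3 to 0.11. With the pseudogene split, which leaves KDM5A shRNA alone on the erlotinib side, CARS turned to -0.06, WARS to 0.06, ASNS to -1.22 and PHGDH to -1.93. With limma-voom ASNS turned to -0.22 and PHGDH to -0.10. With libraries left out in turn, MARS ranged from -0.23 to 0.07, SARS from -0.60 to 0.08, WARS from -0.37 to 0.07, DDIT3 from -1.43 to 0.22, ASNS from -0.34 to 1.09, PHGDH from -0.03 to 0.83 and SLC7A11 from -0.20 to 0.59.

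With cells thinned, synthetases moved to a ratio of 0.803 for KDM5A shRNA and 0.840 for scrambled against untreated, and the response to 1.84 for KDM5A cDNA. Without mitochondrial genes CPI-455 against untreated moved to 0.703 for synthetases and 0.996 for the response. TMM scaling moved scrambled against untreated to 0.954 and 0.778. The motif count was 3 with TGATGCAA, against 5. Variance beyond Poisson over the squared mean in untreated cells moved from 3.86 to 0.412 for TRIB3 and from 4.88 to 10.2 for ASNS with cells thinned to 500 UMIs, so neither was read. The causes were not tested.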
